A study of Mus musculus with 10 samples.

Results

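The genes described here are 10 genes of the transforming growth factor beta (TGF-beta) family and its surroundings. They are the ligand genes *Tgfb1*, *Tgfb2* and *Tgfb3*, the receptor genes *Tgfbr1* and *Tgfbr2*, the latency genes *Ltbp1*, *Ltbp2* and *Ltbp3*, the activin subunit gene *Inhba* and the matrix gene *Tgfbi*. They were chosen by symbol, with no measured value in the rule, from a table of 47069 genes, and all 10 were among the 16179 genes that passed the filter on low counts. RNA-seq was performed on cultures labelled as intestinal organoids, which are epithelial cultures grown from crypts in Matrigel with Noggin, EGF and R-spondin-1. Every culture, controls included, was of the C57BL/6 strain with floxed *Ppp2r1a* alleles and the *Lgr5-EGFP-CreERT2* allele, in which tamoxifen switches on a Cre recombinase made in Lgr5+ crypt stem cells. Cells that do not make Lgr5 therefore keep *Ppp2r1a*, the gene of the PP2A scaffold subunit, unless they descend from Lgr5+ cells. After 50 days libraries were made in pairs for 5 groups, control (saline), DMBA (7,12-dimethylbenz[a]anthracene, a carcinogen), TAM short and TAM long (tamoxifen, called dosage-sensitive in the labels), and both agents together (DMBA+TAM), with 2 libraries each. The labels write "Long" for DMBA too and do not say what short and long mean. Nothing says that replicates came from separate animals, so p-values measure the spread between these libraries, which may be technical.

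TGF-beta ligands are made as precursors that stay bound to their own propeptide, and this latent complex is tied by latent TGF-beta binding proteins (LTBPs) to fibrillin in the matrix until integrins, proteases or thrombospondin release the ligand. The freed ligand joins the type II receptor to the type I receptor, which phosphorylates SMAD proteins that enter the nucleus. In the gut, TGF-beta stops the growth of epithelial cells and drives fibroblasts to deposit matrix, and loss of the receptor or of SMAD4 is common in colorectal cancer. Activin A, a dimer of the *Inhba* product, uses other receptors but the same SMAD proteins.

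The 250 bases before the transcription start were available for 9 of the 10 genes (RefSeq, GRCm38.p6). They are shown for *Tgfb1*, the ligand with the highest mean level per kilobase of listed gene length in every group. They are also shown for *Ltbp2* and *Inhba*, whose levels differed most between DMBA+TAM and control. Capitals mark matches to motifs, each searched as written and as its reverse complement. The SMAD box was searched as CAGAC and the AP-1 site as TGANTCA. The TATA box was searched as TATAAA and the GC box as GGGCGG, and no match overlapped another motif. The sequences read 5′ to 3′ along the gene's own strand, from chr7:25686752-25687001 (plus strand), chr12:84876533-84876741 (minus strand) and chr13:16011601-16011850 (plus strand). For *Ltbp2* the last 41 bases of the window, which lie inside the gene as listed, are left out.
Tgfb1: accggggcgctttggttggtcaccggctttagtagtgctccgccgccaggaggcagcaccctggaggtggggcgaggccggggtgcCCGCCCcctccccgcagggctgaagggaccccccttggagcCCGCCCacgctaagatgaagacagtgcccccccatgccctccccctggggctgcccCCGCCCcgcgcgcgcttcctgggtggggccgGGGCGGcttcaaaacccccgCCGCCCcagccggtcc
Ltbp2: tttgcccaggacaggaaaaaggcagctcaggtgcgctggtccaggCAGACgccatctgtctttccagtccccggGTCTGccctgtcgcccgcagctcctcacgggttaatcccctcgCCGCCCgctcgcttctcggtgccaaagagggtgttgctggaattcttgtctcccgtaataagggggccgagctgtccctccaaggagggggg
Inhba: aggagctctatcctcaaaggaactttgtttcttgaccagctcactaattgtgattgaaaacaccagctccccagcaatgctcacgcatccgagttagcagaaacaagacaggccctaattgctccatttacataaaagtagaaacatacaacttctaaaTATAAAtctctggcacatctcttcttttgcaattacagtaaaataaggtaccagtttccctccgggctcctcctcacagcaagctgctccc
The *Tgfb1* window held 5 GC boxes, beginning 164, 123, 67, 36 and 16 bases before the start, no SMAD box and 75.2% G or C. The *Ltbp2* window held 2 SMAD boxes, beginning 205 and 176 bases before the start, and 2 GC boxes, beginning 133 and 9 bases before it, the last of them in the bases left out. The *Inhba* window was the poorest in G and C of the 9 (43.2%) and held a single match, a TATA box beginning 91 bases before the start. Across 32851 promoters of this length, 42.2% held a SMAD box, 32.7% a GC box, 12.4% a TATA box and 6.75% an AP-1 site, and none of the 9 windows held an AP-1 site. No motif of the 4 stood in all 3 windows shown, and no more is read from them.

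The libraries themselves differed before any of the 10 genes was considered. The 8 libraries outside DMBA+TAM held 8828247 to 10923673 reads counted on genes and the DMBA+TAM libraries 1592366 and 1915270, so that 3 counts stood for 1.58 and 1.32 normalized CPM (a library's counts over its TMM-scaled total) in DMBA+TAM and for 0.258 to 0.378 elsewhere. The floxed gene *Ppp2r1a* had 123 to 129 normalized CPM in control, 130 to 147 in TAM short, 152 to 167 in DMBA, 157 to 169 in TAM long and 129 to 133 in DMBA+TAM, but its counts cover all exons and cannot show the deletion. Markers of epithelium (10 genes, *Epcam* and keratins among them) summed to 18970 to 19796 normalized CPM in control and to 22.9 to 33.2 in DMBA+TAM, where 6 of the 10 were at 3 counts or fewer in both libraries. The label of intestinal organoid is at odds with these markers in DMBA+TAM. The other groups were not free of markers of other cell types. Smooth muscle markers (7 genes) summed to 1854 to 2192 in control and 1268 to 2389 in TAM short. In DMBA they summed to 7440 to 12621 and in TAM long to 8733 to 13412. T cell markers (7 genes) summed to 47.8 to 57.9 in control and 98.5 to 103 in TAM short. Fibroblast markers (12 genes) summed to 1426 to 1566 in control and 33007 to 33921 in DMBA+TAM, and macrophage markers (8 genes) to 134 to 148 and 3483 to 3860. The libraries are named NS (control), NL (DMBA), DSS_S (TAM short), DSS_L (TAM long) and Lgr5 (DMBA+TAM), so that a closing S or L separates control and TAM short from DMBA and TAM long, and the labels do not explain these names. Small intestine markers (8 genes) summed to 34679 to 37147 in control and 19152 to 21334 in TAM short, against 298 to 689 in DMBA and 875 to 935 in TAM long. Colon markers (7 genes) had the opposite order, with 1630 to 1860 in control and 2725 to 3323 in TAM short against 16349 to 20813 in DMBA and 18124 to 22177 in TAM long. The gut segment and the treatment therefore cannot be told apart in comparisons of DMBA or TAM long with control.

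**Figure D1:**
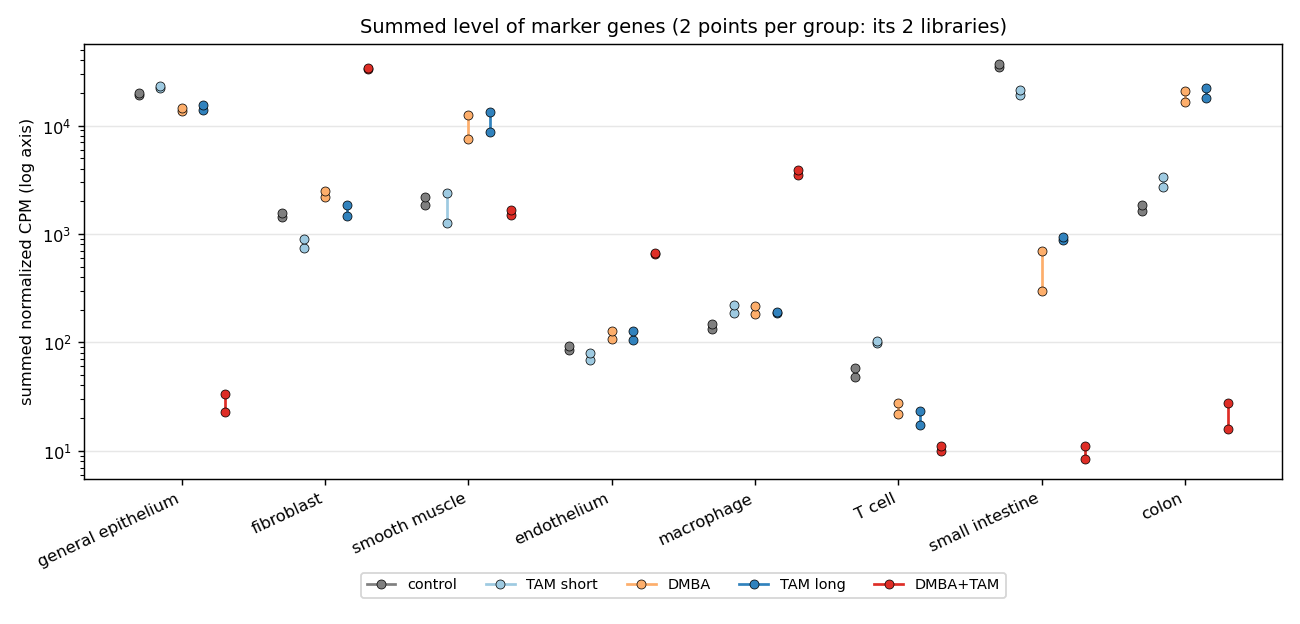
Summed normalized CPM (log axis) of each marker list, with 1 point for each library and 5 colours for the groups. In DMBA+TAM the epithelial sum lay between 22.9 and 33.2 and the fibroblast sum between 33007 and 33921, and the small intestine and colon sums separate control and TAM short from DMBA and TAM long.

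DMBA+TAM was first compared with control. All 10 genes were higher, where 64.3% of all genes tested were called, 29.0% as higher and 35.3% as lower (edgeR's quasi-likelihood test, Benjamini-Hochberg adjusted p under 0.05 over all genes tested). The median log2 fold change of the 10 was 3.59, against -0.17 over all genes tested. In bulk samples such as these, fewer cells of a type and less RNA per cell cannot be told apart, and the part of the marker differences above in these results was not tested.

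Among the ligands, *Tgfb1* (ENSMUSG00000002603, chromosome 7, 25687002 to 25705077, plus strand of GRCm38), the most widely made ligand, had 6.66 and 7.33 normalized CPM in control, 7.89 and 7.18 in TAM short, 13.7 and 15.02 in DMBA, 11.96 and 10.1 in TAM long, and 139 and 142 in DMBA+TAM. Both DMBA+TAM libraries lay far above the other 8, DMBA and TAM long formed a middle level, and control and TAM short overlapped. The log2 fold change of DMBA+TAM against control was 4.33 (standard error 0.15, adjusted p = 2.11e-08). *Tgfb3* (ENSMUSG00000021253, chromosome 12, 86056744 to 86079041, minus strand), a ligand known from closure of the palate, had 6.66 and 5.77 normalized CPM in control, 4.96 and 3.78 in TAM short, 12.8 and 10.4 in DMBA, 11.3 and 15.5 in TAM long, and 114 and 116 in DMBA+TAM. It had the same 3 levels as *Tgfb1*, with TAM short below control in both libraries by a difference that did not pass the test (log2 fold change -0.50, adjusted p = 0.194). Its log2 fold change in DMBA+TAM against control was 4.20 (standard error 0.22, adjusted p = 1.34e-07).

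*Tgfb2* (ENSMUSG00000039239, chromosome 1, 186622792 to 186705989, minus strand), a ligand that needs the co-receptor betaglycan to bind its receptor well, behaved differently. It had 2.71 and 1.80 normalized CPM in control, 4.17 and 1.64 in TAM short, 13.7 and 9.19 in DMBA, 10.1 and 12.5 in TAM long, and 25.3 and 18.9 in DMBA+TAM, the last from 48 and 43 counts. DMBA+TAM was again highest, and on the log2 scale the step from DMBA or TAM long was smaller than the step from control to these groups. The log2 fold change from control was 3.27 (standard error 0.43, adjusted p = 9.04e-05). Against DMBA it was 0.93 (standard error 0.37), which did not pass the test (adjusted p = 0.0552). It passed with DESeq2 (adjusted p = 0.0331), with scaling by library size only (0.0392), with no filter on low counts (0.00598), with the replicate block (0.95, adjusted p = 0.0315) and without DMBA replicate 1 (1.27, adjusted p = 0.0304). Against TAM long it was 0.97 (adjusted p = 0.0484), a call lost without any one of its 4 libraries (adjusted p 0.0685 to 0.223). The betaglycan gene *Tgfbr3* had 17.7 and 16.7 normalized CPM in control and 109 and 135 in DMBA+TAM (log2 fold change 2.82, adjusted p = 1.41e-07).

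The weight of each ligand among the 3 was read per kilobase of listed gene length, since longer genes gather more counts. *Tgfb1* held 54.5% ± 5.08 (SD, n = 2) of the summed ligand level in control and 58.8% in DMBA+TAM, and 61.7% in TAM short, 41.3% in TAM long and 49.8% in DMBA. *Tgfb2* held 8.80% ± 2.28 in control and 4.65% in DMBA+TAM, and it held 11.4% in TAM short but 19.7% in DMBA and 21.0% in TAM long. *Tgfb3* held 36.7% in control and 36.6% in DMBA+TAM, and 26.9% to 37.7% in the other groups. The summed level went from 5.00 normalized CPM per kilobase in control and 4.79 in TAM short to 10.4 in TAM long, 11.3 in DMBA and 92.9 in DMBA+TAM. By this length the order of the group means was *Tgfb1*, *Tgfb3*, *Tgfb2* in every group, but in TAM long the first and second overlapped, and *Tgfb3* held more than *Tgfb1* in replicate 2 (41.9% against 35.9%). The share of *Tgfb2* lay between 3.97% and 5.34% in the DMBA+TAM libraries and between 16.8% and 22.7% in the 4 DMBA and TAM long libraries. These shares were not tested. The deposited FPKM rest on a shorter length for *Tgfb1* and *Tgfb2* and put the mean of *Tgfb2* above that of *Tgfb3* in DMBA and in both TAM groups (in TAM short in replicate 1 alone, with 22.5% against 14.5%, and 11.5% against 14.3% in replicate 2), so the order of these ligands depends on the length used.

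**Figure D2:**
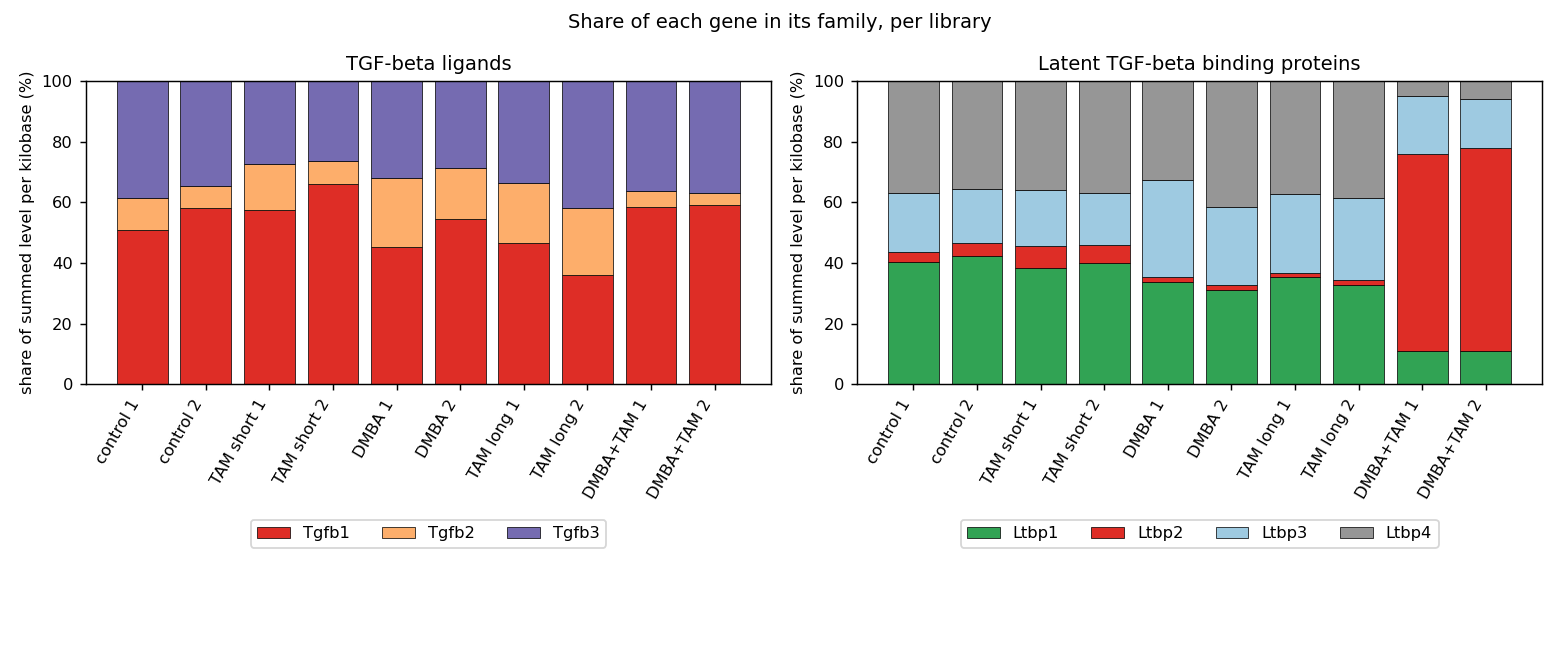
Share (%) of each gene in the summed level per kilobase of its family, 1 bar for each of the 10 libraries, for the ligands (left) and the latent TGF-beta binding proteins (right). *Tgfb2* takes 4.65% on average in DMBA+TAM, 19.7% in DMBA and 21.0% in TAM long, and *Ltbp2* takes 66.1% in DMBA+TAM against 1.57% to 6.44% in the other groups.

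DMBA+TAM had more RNA of both receptor genes than any other group. *Tgfbr2* (ENSMUSG00000032440, chromosome 9, 116087698 to 116175363, minus strand), the receptor that binds the ligand first, had 48.7 and 46.5 normalized CPM in control, 49.5 and 47.1 in TAM short, 77.8 and 72.9 in DMBA, 67.1 and 67.6 in TAM long, and 545 and 634 in DMBA+TAM. The libraries of control and TAM short could not be separated, and those of DMBA lay just above those of TAM long. The log2 fold change of DMBA+TAM was 3.63 against control (standard error 0.12, adjusted p = 1.81e-08), 2.97 against DMBA and 3.13 against TAM long. *Tgfbr1* (ENSMUSG00000007613, chromosome 4, 47353222 to 47414931, plus strand), the kinase that phosphorylates SMAD2 and SMAD3, had 36.8 and 40.3 normalized CPM in control, 36.1 and 38.3 in TAM short, 40.9 and 47.4 in DMBA, 51.2 and 55.8 in TAM long, and 184 and 189 in DMBA+TAM. Its groups other than DMBA+TAM lay close together, and DMBA+TAM exceeded control by 2.27 on the log2 scale (standard error 0.12, adjusted p = 1.80e-07). Per kilobase of listed length *Tgfbr2* had 9.95 ± 0.330 and *Tgfbr1* 6.69 ± 0.427 normalized CPM in control, and 123 ± 13.1 and 32.4 ± 0.586 in DMBA+TAM (SD, n = 2). The receptor pair therefore stood above each ligand per kilobase in the libraries of control, while in DMBA+TAM *Tgfbr1* lay below *Tgfb1* (54.6 ± 0.809) and close to *Tgfb3* (33.96 ± 0.478). By the deposited FPKM *Tgfbr1* had 88.4 and *Tgfb3* 40.4 in DMBA+TAM, and the mean of *Tgfbr1* lay above that of *Tgfbr2* in the 4 groups outside DMBA+TAM (but not in DMBA replicate 1, with 18.3 for both), so both comparisons of levels depend on the length used.

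The latency genes showed the widest range. *Ltbp2* (ENSMUSG00000002020, chromosome 12, 84783212 to 84876532, minus strand), an LTBP that binds fibrillin but not TGF-beta itself, had 2.60 and 3.12 normalized CPM in control, 4.51 and 3.15 in TAM short, 2.67 and 2.02 in DMBA, 1.46 and 1.67 in TAM long, and 606 and 628 in DMBA+TAM. The DMBA+TAM level rested on 1150 and 1428 counts, whereas the other 8 libraries had 17 to 40 counts each from totals several times larger. The log2 fold change from control was 7.75 (standard error 0.20, adjusted p = 7.99e-09), and 7.32 against TAM short, 8.01 against DMBA and 8.61 against TAM long. It was between 7.62 and 7.88 against control when any one library was left out. *Ltbp3* (ENSMUSG00000024940, chromosome 19, 5740904 to 5758532, plus strand), which helps TGF-beta to be secreted, had 11.3 and 9.98 normalized CPM in control, 9.02 and 7.18 in TAM short, 36.5 and 25.7 in DMBA, 19.5 and 21.1 in TAM long, and 135 and 115 in DMBA+TAM. Its 2 DMBA libraries lay above both TAM long libraries. DMBA+TAM exceeded control by 3.55 on the log2 scale (standard error 0.21, adjusted p = 3.04e-07) and DMBA by 2.00. *Ltbp1* (ENSMUSG00000001870, chromosome 17, 75005568 to 75392512, plus strand), which ties latent TGF-beta to the matrix, had 30.1 and 30.6 normalized CPM in control, 24.1 and 21.4 in TAM short, 49.7 and 39.8 in DMBA, 33.9 and 32.6 in TAM long, and 100.1 and 101.1 in DMBA+TAM. DMBA+TAM exceeded control by 1.73 on the log2 scale (standard error 0.14, adjusted p = 2.71e-06), the smallest of the 3 latency genes.

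With *Ltbp4*, the remaining member of that family, these genes changed places. *Ltbp1* held 41.3% of the summed LTBP level per kilobase in control and *Ltbp4* 36.3%, with 18.6% for *Ltbp3* and 3.84% for *Ltbp2*. In DMBA+TAM *Ltbp2* held 66.1%, *Ltbp3* 17.4%, *Ltbp1* 10.9% and *Ltbp4* 5.56%. The summed level was 11.03 normalized CPM per kilobase in control, 8.71 in TAM short, 14.7 in TAM long, 20.6 in DMBA and 138 in DMBA+TAM. *Ltbp2* was the least abundant of the 4 in every group but DMBA+TAM, where it led in both libraries (65.1% and 67.0%). By the deposited FPKM *Ltbp2* held 71.7% in DMBA+TAM, but *Ltbp1* (11.9%) then lay above *Ltbp3* (10.4%) in both libraries, and *Ltbp3* held 11.1% in control, so the order of these 2 depends on the length used. These shares were computed after values had been seen and were not tested.

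*Inhba* (ENSMUSG00000041324, chromosome 13, 16011851 to 16027211, plus strand), which encodes the subunit of activin A, had 1.35 and 2.64 normalized CPM in control, 1.47 and 1.64 in TAM short, 1.16 and 2.91 in DMBA, 1.21 and 1.67 in TAM long, and 78.0 and 75.2 in DMBA+TAM. The 4 other groups overlapped, and the DMBA+TAM level came from 148 and 171 counts. The log2 fold change from control was 5.26 (standard error 0.38, adjusted p = 1.36e-06), and it was 5.61 against TAM short, 5.26 against DMBA (6.03 without DMBA replicate 2) and 5.73 against TAM long. The other activin subunit gene *Inhbb* had 1.69 and 0.601 normalized CPM in control and 68.0 and 67.3 in DMBA+TAM (log2 fold change 5.85, adjusted p = 1.04e-06). The gene of the activin trap follistatin, *Fst*, had 4.29 and 3.85 in control and 94.3 and 70.3 in DMBA+TAM (log2 fold change 4.33, adjusted p = 8.40e-05), so subunits and trap were both higher.

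*Tgfbi* (ENSMUSG00000035493, chromosome 13, 56609603 to 56639339, plus strand), a secreted matrix protein named for its induction by TGF-beta, did not follow the ligands. It had 302 and 315 normalized CPM in control, 386 and 474 in TAM short, 101.3 and 79.2 in DMBA, 107 and 102 in TAM long, and 422 and 411 in DMBA+TAM. It was lowest in DMBA and TAM long, the groups in which the ligands had their middle level, and DMBA+TAM lay between the TAM short libraries. Against control the log2 fold change of DMBA+TAM was 0.43 (standard error 0.15, adjusted p = 0.0268), a call lost without any one of the 4 libraries (adjusted p 0.0723 to 0.116) and with no filter on low counts (adjusted p = 0.0517). Against TAM short it was -0.05 (standard error 0.15, adjusted p = 0.807), with a positive sign under DESeq2 (0.02) and under scaling by library size only (0.36). Against DMBA and TAM long it was 2.20 (adjusted p = 1.65e-06) and 1.99 (adjusted p = 2.90e-06). *Tgfbi* was the most abundant of the 10 per kilobase of listed length in every group, with 115 ± 3.58 normalized CPM in control libraries and 156 ± 2.87 in DMBA+TAM, where *Tgfbr2* (123 ± 13.1) came next. By the deposited FPKM *Ltbp2* led it in DMBA+TAM (198 against 185).

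**Figure D3:**
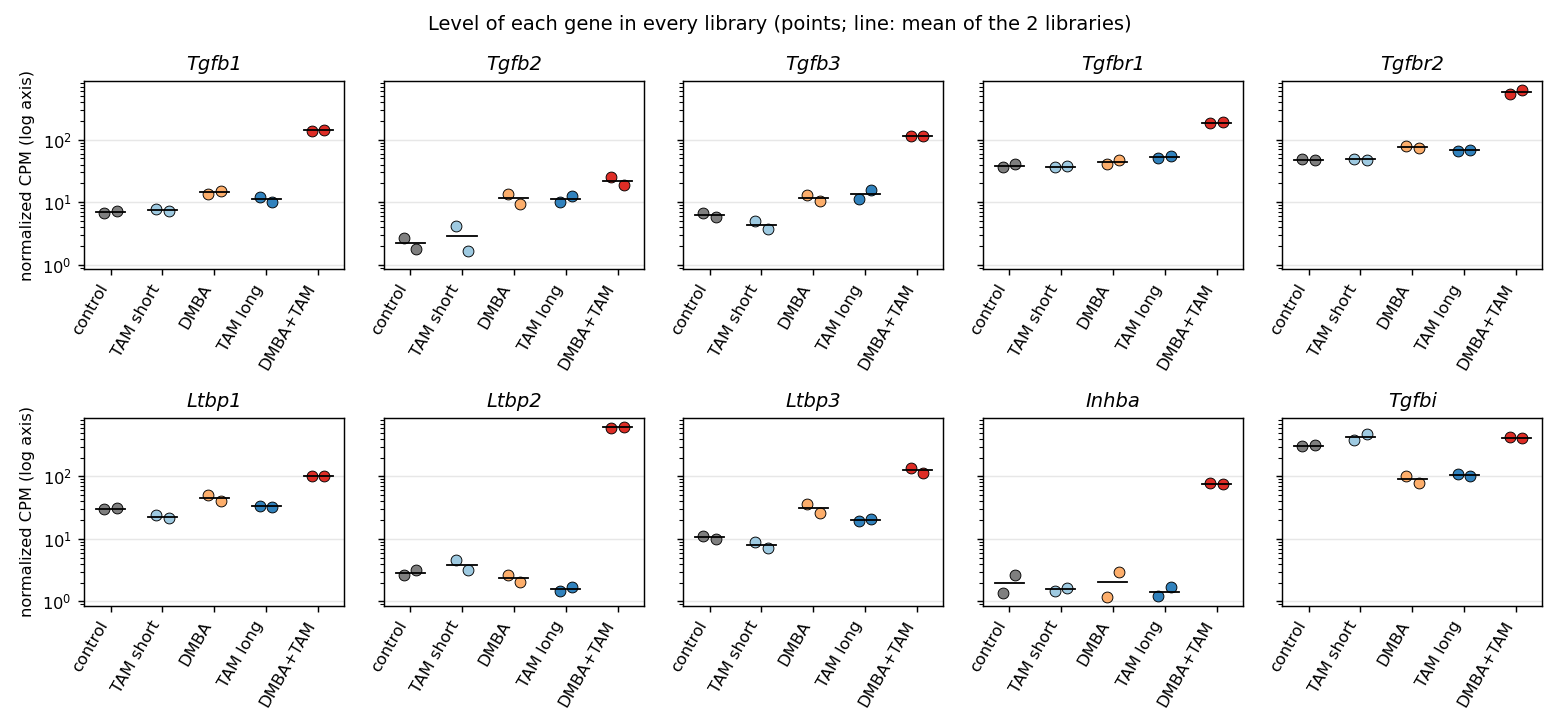
Normalized CPM (log axis, shared by all panels) of each of the 10 genes in every library, with points for libraries and a line for the mean of the 2 libraries of a group. For 9 genes both DMBA+TAM points lie above the other 8, whereas for *Tgfbi* they lie between the TAM short points of 386 and 474.

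DMBA+TAM was then set against each treatment alone, to ask whether the pair of treatments differed from either of them. Against DMBA, 9 of the 10 genes were higher and *Tgfb2* was not called, where 55.1% of all genes were called, 25.2% higher and 29.9% lower. Against TAM long, all 10 were higher, where 55.2% of all genes were called, 25.3% higher and 29.9% lower. Against TAM short, 9 were higher and *Tgfbi* was not called, where 63.1% of all genes were called, 29.3% higher and 33.8% lower. The median log2 fold changes of the 10 genes were 2.59, 2.86 and 3.77 in these comparisons, and -0.14 over all genes in each. These comparisons share the DMBA+TAM libraries, so their counts do not add to each other. In each of them all 12 fibroblast and all 8 macrophage markers were higher and all 10 epithelial markers lower. All 7 smooth muscle markers were lower against DMBA and TAM long (3 of 7 lower and 2 higher against TAM short), summing to 1490 to 1665 normalized CPM in DMBA+TAM. With scaling by library size only, the median of all genes moved up by 0.48 on the log2 scale against control and by 0.18 against DMBA. It moved up by 0.16 against TAM long and by 0.39 against TAM short. Every one of the 10 genes was then called higher in each of these comparisons except *Tgfbi* against TAM short. The number of all genes called higher also rose under that scaling, from 4687 to 6236 against control and from 4075 to 4739 against DMBA. It rose from 4093 to 4646 against TAM long and from 4734 to 5999 against TAM short.

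DMBA alone was compared with control, and 6 genes were higher and 1 lower, where 47.8% of all genes were called, 24.5% higher and 23.3% lower. All 3 ligands were higher, with log2 fold changes of 1.04 for *Tgfb1* (adjusted p = 0.000401), 2.34 for *Tgfb2* (adjusted p = 0.00118) and 0.91 for *Tgfb3* (adjusted p = 0.00618). *Tgfbr2* (0.66, adjusted p = 0.0012), *Ltbp1* (0.56, adjusted p = 0.00675) and *Ltbp3* (1.55, adjusted p = 0.000183) were also higher. *Tgfbi* was lower (-1.77, standard error 0.15, adjusted p = 1.62e-05). *Tgfbr1* (0.20), *Ltbp2* (-0.27) and *Inhba* (-0.01) were not called, but *Tgfbr1* was called higher when library size alone set the scale (0.50, adjusted p = 0.00418). *Tgfb3* missed the threshold without control replicate 2 (adjusted p = 0.0514) and *Ltbp1* without DMBA replicate 1 (adjusted p = 0.0631).

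TAM long was then compared with control, and 6 genes were higher and 2 lower, where 46.0% of all genes were called, 23.2% higher and 22.8% lower. *Tgfb1* (0.66, adjusted p = 0.00583), *Tgfb2* (2.31, adjusted p = 0.00134), *Tgfb3* (1.10, adjusted p = 0.00208), *Tgfbr1* (0.47, adjusted p = 0.00855), *Tgfbr2* (0.50, adjusted p = 0.00598) and *Ltbp3* (0.93, adjusted p = 0.00399) were higher. *Tgfbi* was lower (-1.56, standard error 0.15, adjusted p = 3.41e-05), and so was *Ltbp2* (-0.86, adjusted p = 0.0174). *Ltbp2* rested on 17 counts in each TAM long library, and its call was lost when library size alone set the scale (-0.55, adjusted p = 0.137), with only the groups compared in the fit (-0.87, adjusted p = 0.0836), without control replicate 2 (adjusted p = 0.139) and without TAM long replicate 1 (adjusted p = 0.104). The call of *Tgfbr1* was lost without control replicate 1 (adjusted p = 0.068) or TAM long replicate 2 (adjusted p = 0.0756) and that of *Tgfbr2* without control replicate 2 (adjusted p = 0.0504). *Ltbp1* (0.13) and *Inhba* (-0.47) were not called. The median of the 10 genes was 0.49 here and 0.61 in DMBA, against 0.05 and 0.07 over all genes, and both comparisons share the control libraries. Smooth muscle markers (7 genes) moved with these groups, summing to 1854 to 2192 normalized CPM in control, 7440 to 12621 in DMBA and 8733 to 13412 in TAM long. Fibroblast markers summed to 2174 to 2482 in DMBA (9 of 12 called higher than in control, 1 lower) and 1475 to 1839 in TAM long (5 higher, 2 lower). The part of either list in these results was not tested.

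**Figure D4:**
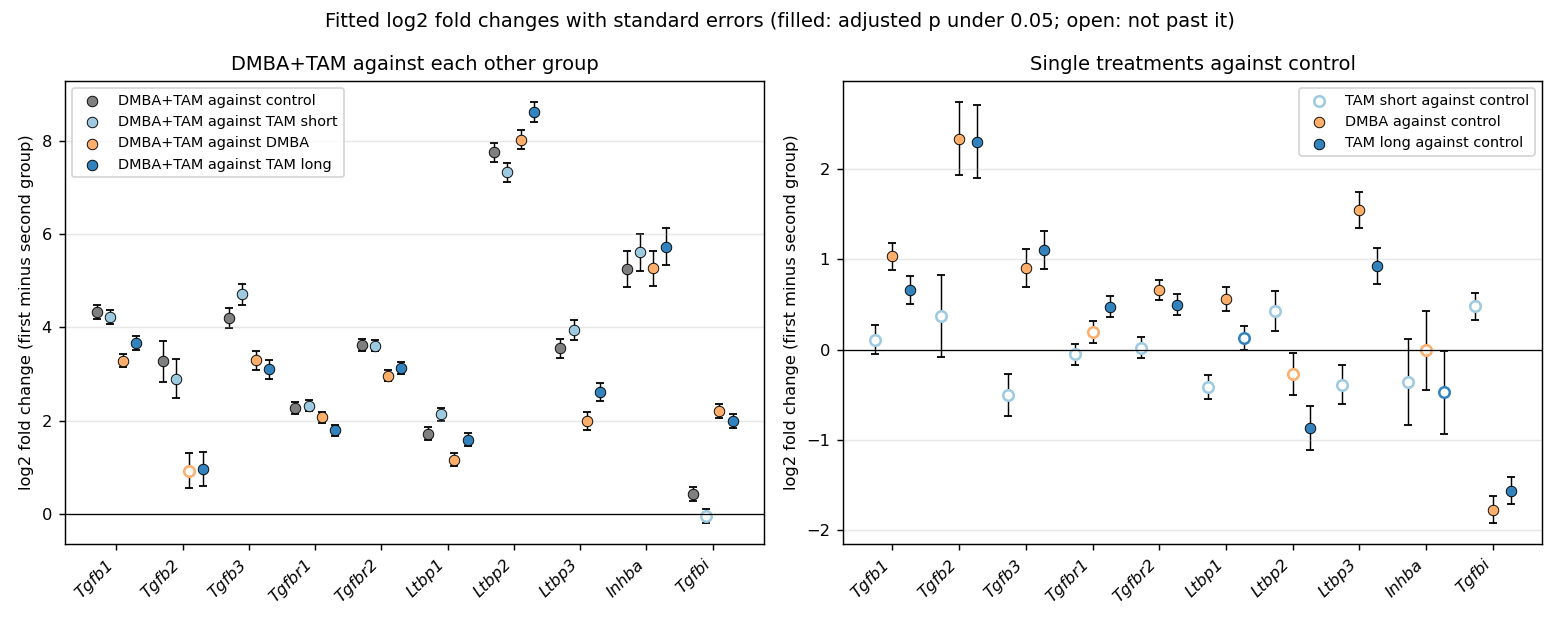
Fitted log2 fold changes (points) with standard errors (bars) for the 10 genes, DMBA+TAM against each other group on the left and each treatment alone against control on the right, filled where the adjusted p was under 0.05. *Ltbp2* lies highest on the left at 7.32 to 8.61, and on the right, for DMBA and TAM long, *Tgfb2* is highest at 2.34 and 2.31 and *Tgfbi* lowest at -1.77 and -1.56, while TAM short runs from -0.50 for *Tgfb3* to 0.48 for *Tgfbi*.

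Between TAM long and DMBA, whose libraries both carry the L, none of the 10 genes was called by edgeR, where 2.7% of all genes were called, 1.24% higher and 1.46% lower. At an unadjusted p under 0.05 there were 4 (*Ltbp1*, *Tgfb1*, *Tgfbr1* and *Ltbp3*), and DESeq2 called 0. The log2 fold changes ran from -0.62 for *Ltbp3* (adjusted p = 0.108) to 0.28 for *Tgfbr1* (adjusted p = 0.226), and without DMBA replicate 2 *Ltbp3* was called lower in TAM long (-0.85, adjusted p = 0.035). This comparison was added after the data had been seen. Between TAM short and control, whose libraries carry the S, edgeR again called 0 of the 10, where 14.3% of all genes were called, 6.52% higher and 7.8% lower. At an unadjusted p under 0.05 there were 2 (*Ltbp1* and *Tgfbi*), and DESeq2 called *Tgfbi* alone, higher in TAM short (0.47, adjusted p = 0.023). The fitted values were 0.48 for *Tgfbi* (adjusted p = 0.0585, and 0.0201 with no filter on low counts and 0.00218 with only the groups compared) and -0.42 for *Ltbp1* (adjusted p = 0.0735).

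The interaction of DMBA and TAM long asks whether DMBA+TAM differed from DMBA as TAM long differed from control. Gut segment and treatment cannot be told apart between TAM long and control, and DMBA+TAM nearly lacked the epithelial markers. The interaction therefore does not measure tamoxifen alone. It was positive for 9 of the 10 genes, where 48.2% of all genes were called, 21.6% as positive and 26.5% as negative. It was 8.88 for *Ltbp2* (standard error 0.32), 5.74 for *Inhba*, 3.77 for *Tgfbi*, 2.63 for *Tgfb1*, 2.47 for *Tgfbr2*, 2.20 for *Tgfb3* and 1.60 for *Tgfbr1* on the log2 scale. It was smallest for *Ltbp3* (1.07, adjusted p = 0.00892) and *Ltbp1* (1.04, adjusted p = 0.00141). *Tgfb2* was the exception at -1.37 (standard error 0.55, adjusted p = 0.0632), where a negative value stands for a DMBA+TAM level below the sum of the single differences on the log2 scale. It passed the threshold with no filter on low counts (adjusted p = 0.00312), with only the groups compared (0.0303), with the replicate block (-1.40, adjusted p = 0.0378) and without DMBA replicate 2 (-1.63, adjusted p = 0.0303). Without DMBA replicate 2 the value of *Inhba* was 6.50. With TAM short in place of TAM long, *Tgfb2* had 0.56 (adjusted p = 0.481) and the values of the other 9 genes were again positive. The shares over all genes above belong to the interaction with TAM long. The size and order then differed, with 7.58 for *Ltbp2*, 3.80 for *Tgfb3*, 2.39 for *Ltbp3* and 1.73 for *Tgfbi*, and *Ltbp1* (1.58) was the smallest of the 9. The median of the 10 genes was 2.33, against -0.12 over all genes.

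Around these genes, 50 others of the pathway in 5 lists were counted, and all were tested. In DMBA+TAM against control 36 were higher, 8 lower and 6 not called (5 lower when library size alone set the scale), where 29.0% of all genes tested were higher and 35.3% lower. For the storage and activation of latent TGF-beta, 15 of 16 genes were higher, among them *Fbn1*, the fibrillin to which LTBPs bind (54.4 and 45.8 normalized CPM in control against 2281 and 2441 in DMBA+TAM), and *Thbs1*, the thrombospondin that can release the ligand (31.5 and 25.4 against 1641 and 1405). The exception was *Itgb6*, which encodes the epithelial integrin subunit that activates latent TGF-beta, with 28.5 and 30.5 normalized CPM in control and 0 and 5 counts in DMBA+TAM (log2 fold change -4.61, adjusted p = 1.74e-05). All 5 genes of activin subunits and binders were higher. Of 7 further receptors and co-receptors, 3 were higher (*Tgfbr3*, *Eng* and *Acvrl1*), 2 lower (*Acvr1b* and *Acvr2a*) and 2 not called. Of 12 genes of signal transduction, 5 were higher and 3 lower, and *Smad4*, the shared partner of the SMAD proteins, fell by 1.13 on the log2 scale (adjusted p = 7.67e-05). The list medians were 3.46, 4.33, 0.53 and 0.19, in this order.

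Of 10 genes often induced by TGF-beta, 8 were higher with both treatments than in control and 2 lower, with a median log2 fold change of 2.94. Over all genes tested, 29.0% were higher and 35.3% lower. Against DMBA 5 of the 10 were higher and 3 lower (median 1.55), where 25.2% of all genes were higher and 29.9% lower. Against TAM long 6 were higher and 4 lower (median 1.39), where the shares over all genes were 25.3% and 29.9%. Against both DMBA and TAM long all 7 smooth muscle markers were lower, and each of those groups had all 7 above control. The part of these markers in the target counts was not tested. *Ctgf*, a matrix-associated growth factor, had 5.64 and 5.65 normalized CPM in control and 543 and 422 in DMBA+TAM (log2 fold change 6.41, adjusted p = 3.80e-08). The cell cycle inhibitor genes *Cdkn1a* and *Cdkn2b*, which TGF-beta induces in epithelial cells, were the 2 lower ones, with 275 and 329 against 66.4 and 72.1 normalized CPM and 96.0 and 88.5 against 39.5 and 31.2. *Col1a1* of this list and *Dcn* of the storage list are also among the fibroblast markers, of which 11 of 12 were higher, so these lists are not separate from that difference. All 8 macrophage and all 7 endothelial markers were higher as well, while of the 7 T cell markers 5 were lower, *Cd2* was not called and *Cd4* was higher (by 1.54 on the log2 scale, adjusted p = 0.00342), with *Cd3d*, *Cd3e*, *Cd3g* and *Cd2* at 0 in both DMBA+TAM libraries.

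In DMBA against control 26 of the 50 were higher, 6 lower and 18 not called, where 24.5% of all genes were higher and 23.3% lower (of the 50, 33 higher and 3 lower when library size alone set the scale). In TAM long 21 were higher, 7 lower and 22 not called, where the shares over all genes were 23.2% and 22.8% (of the 50, 31 higher and 3 lower by library size alone). The 21 fell to 11 without control replicate 2 and to 12 without TAM long replicate 2. *Ctgf* had a log2 fold change of 2.62 and 1.97 in these comparisons, while *Cdkn2b* was lower in both (-1.23 and -0.72). *Tgfbi* was thus lower in the same groups in which *Ctgf* was higher. In TAM short against control 3 were higher, 4 lower and 43 not called, near the shares over all genes of 6.52% higher and 7.8% lower, and leaving out any 1 of control replicate 1, control replicate 2 and TAM short replicate 2 left 0 higher and 1 lower.

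The genes whose pattern over the 10 libraries was most like that of each ligand were named by Pearson's r of log2(normalized CPM + 1) among 10099 genes. For *Tgfb1* these were *Gas7*, *Loxl3* and *Folr2* (r = 0.997, 0.996 and 0.996), for *Tgfb3* they were *Arap3*, *Ppm1f* and *Igsf10* (0.999, 0.997 and 0.997), and for *Tgfb2* they were *Clec14a*, *Ptrf* and *Msrb3* (0.988, 0.987 and 0.987). The 10 points fall into 5 groups and the 2 DMBA+TAM libraries, which are also the smallest, lie apart from the rest for *Tgfb1* and *Tgfb3*, so these r values are given as a description without a test. No gene was shared between the 3 sets.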

How the data were processed

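RNA-seq was performed by the authors on 10 libraries of poly(A) RNA. Reads were mapped with TopHat and counted per gene with HTSeq, on GRCm38.p6 per the labels. The strand setting is not given in the sources used here. The deposited table holds raw counts, which were tested here, and FPKM, which the authors computed from count and gene length. For some genes the length behind the deposited FPKM is shorter than the length listed. The table also holds the authors' own fold changes and p-values of group comparisons, and none were used. *Tgfb1* stands on a line that was split and was found by its gene ID, whereas the other 9 genes were found by name. Exons of genes on the other strand overlap *Tgfb2*, *Tgfb3*, *Ltbp2* and *Ltbp3* in GENCODE M21, so their counts may hold reads of those genes.

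Genes of low count were removed by filterByExpr of edgeR 4.0.16 (R 4.3.3), and libraries were scaled by TMM (factors 0.832 to 1.19). A quasi-likelihood model took 1 mean per group over all 10 libraries, and p-values were adjusted by Benjamini-Hochberg over 16179 genes, with a threshold of 0.05. The standard error is the absolute log2 fold change divided by the square root of F. As alternatives, DESeq2 1.42.0 was run, TMM was replaced by library size only, the filter was dropped, the fit was limited to the groups compared, the replicate number was added as a block, TAM short was taken for TAM long, shares were taken from deposited FPKM, and each library was left out in turn. In the last, a group of 1 library is assumed to vary like the others. The steps were tested on simulated data in which far fewer genes were changed than were called here in DMBA+TAM. That test therefore does not cover differences as wide as those of DMBA+TAM. The 10 genes and all lists were chosen with earlier results of these data known. The genes named are the 10, genes of the 5 pathway lists that help to read them, and, by likeness, the 3 genes with a mean of at least 10 normalized CPM and the highest r for each ligand. Sequences are from RefSeq. Floors of 3 counts cover counting error only.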

Additional observations from a re-analysis of the deposited data

Results flagged for a closer look

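For 9 of the 10 genes DMBA+TAM did not differ from DMBA as TAM long differed from control, by the interaction test in edgeR (DMBA+TAM minus DMBA, less TAM long minus control). Gut segment and treatment cannot be told apart between TAM long and control, so the interaction value does not measure tamoxifen alone. On the log2 scale the value was 2.63 for *Tgfb1*, 2.20 for *Tgfb3*, 1.60 for *Tgfbr1*, 2.47 for *Tgfbr2*, 1.04 for *Ltbp1*, 8.88 for *Ltbp2*, 1.07 for *Ltbp3*, 5.74 for *Inhba* and 3.77 for *Tgfbi*. For *Tgfbi* tamoxifen went with a lower level without DMBA (-1.56 for TAM long against control) and a higher level with it (2.20 for DMBA+TAM against DMBA). TAM short against control had the opposite sign (0.48, adjusted p = 0.0585 in edgeR), and with TAM short in place of TAM long the value of *Tgfbi* was 1.73. The same test called 48.2% of all genes, and the markers of epithelium, fibroblasts and gut segment also differ between these groups.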

How the results depend on the processing

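Of 90 fold changes of the 10 genes in 9 comparisons, 87 kept their direction and their side of the threshold with DESeq2, 83 with scaling by library size only, 85 with no filter on low counts, 86 with only the groups compared and 87 with the replicate block; of 400 values with 1 library left out, 369 did. The calls lost or gained among these are given with the genes above or in the values below, and the cause was not tested. The DMBA+TAM libraries are the shallowest, and *Tgfb2* rested there on 48 and 43 counts.

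With library size only, the genes called lower were 3764 of all genes and 5 of the 50 pathway genes in DMBA+TAM against control, 2258 and 3 in DMBA against control, 2144 and 3 in TAM long against control (with 1 of the 10 genes), and among pathway genes 4 in DMBA+TAM against TAM short and 2 in TAM short against control. With DESeq2, 1 of the 10 genes and 5 of the 50 pathway genes were higher in TAM short than in control, where 1100 of all genes were higher. TAM long against DMBA then gave 417 genes higher and 440 lower, 7 of these from the pathway. With no filter on low counts, 1 of the 10 genes and 7 pathway genes were higher in TAM short than in control, and these counts are not read as a result. TAM long against DMBA then gave 686 genes higher and 929 lower, with 2 and 8 from the pathway and 1 of the 10 genes lower (*Ltbp3*, -0.63). With only the groups compared, 1 of the 10 genes was lower in TAM long than in control, where 4015 of all genes were lower. TAM short against control then gave 2212 genes higher and 2049 lower, with 8 and 7 from the pathway and 1 of the 10 genes higher, and TAM long against DMBA gave 11 and 23, with 0 pathway genes lower. *Tgfb2* had a negative interaction that passed the threshold, 1 of the 10 genes, with no filter (-1.40), with only the groups compared (-1.37) and with the replicate block (-1.40).

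Without TAM short replicate 1, *Tgfb2* exceeded TAM short in DMBA+TAM by 3.74 on the log2 scale, against 2.90 with it.

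The sign turned for values that did not pass the test. *Tgfbi* in DMBA+TAM against TAM short became 0.0246 (DESeq2) and 0.3565 (library size only), and ran from -0.1858 to 0.1095 with 1 library left out. In DMBA against control *Ltbp2* became 0.0452 and *Inhba* 0.284 with library size only. In TAM short against control *Tgfbr1* became 0.0384 with library size only and 0.0045 with only the groups compared. In TAM long against DMBA *Tgfb2* became 0.0184 with the replicate block. The interaction of *Tgfb2* became 0.5585 with TAM short for TAM long. With 1 library left out, *Inhba* ran from -0.7684 to 0.5417 in DMBA against control, from -0.883 to 0.0745 in TAM long against control, from -0.7662 to 0.1913 in TAM short against control and from -1.0247 to 0.2951 in TAM long against DMBA. *Tgfb2* ran from -0.4635 to 0.8776, *Tgfbr1* from -0.1152 to 0.0152 and *Tgfbr2* from -0.0163 to 0.0554 in TAM short against control, and in TAM long against DMBA *Tgfb2* ran from -0.2872 to 0.2896 and *Tgfb3* from -0.0543 to 0.4094.

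With 1 library left out, DMBA against control gave 2591 to 3727 genes higher. TAM long against control gave 2430 to 2894 higher, with 11 to 17 pathway genes higher and 1 to 2 of the 10 genes lower. TAM short against control gave 344 to 532 higher and 404 to 649 lower, with 0 to 2 and 1 to 5 pathway genes. TAM long against DMBA gave 35 to 429 higher and 35 to 598 lower, with 0 to 1 and 0 to 5 pathway genes and 0 to 1 of the 10 genes lower, and the interaction had 0 to 1 of the 10 genes negative.

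With deposited FPKM, *Tgfb1* held 64.86% of the ligands in control, 71.16% in DMBA+TAM and 68.624% in TAM short. The shares of *Tgfb2* and *Tgfb3* were 14.11% and 21.03% in control, 16.996% and 14.38% in TAM short, 29.177% and 16.073% in DMBA, 32.297% and 20.705% in TAM long, and 7.569% and 21.271% in DMBA+TAM.

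The replicate numbers share only a number. Deviations of same-numbered libraries correlated at r = -0.06 to 0.08 between groups, except 0.32 between DMBA and TAM long, and the block changed 2 of the 90 calls, both of *Tgfb2*.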
